A study of Mus musculus with 4 samples.

Results

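The genes described here are 48 known Myc-driven genes of the nucleolus, the compartment in which ribosomes are built, in splenic Esam dendritic cells (DC) of mice with and without Runx3. They were chosen by name, with earlier results of these data known. Each was represented by the brightest of its probe sets that carried its symbol alone and reached a log2 value of 6.5 on at least 1 of the 4 arrays. This gave 47 of the 48 genes, among 9894 genes with such a probe set. Noc2l had no probe set of its own and was not analysed here. All 47 genes lay clear of the limit, and the closest were Rrp12, Rrp9 and Rrp1b, whose highest arrays were at 7.49, 7.71 and 7.83.

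A ribosome is built around RNA that RNA polymerase I transcribes in the nucleolus. Small nucleolar ribonucleoprotein particles (snoRNPs), of the box C/D class for methylation and the box H/ACA class for pseudouridylation, modify that RNA, and large protein assemblies and RNA helicases fold it, cut it and add the ribosomal proteins of the small and the large subunit. Many of these genes are known targets of the transcription factor Myc and are most active in growing cells.

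RNA from sorted DC of 4 mice was measured on 4 arrays, 1 mouse per array, to ask which genes respond to loss of the transcription factor Runx3. The 2 wt mice carried the genotype DCRunx3 +/+ and the 2 cKO mice DCRunx3 -/-, made by crossing Runx3fl/fl mice with mice that carry Cre under the promoter of CD11c, which is active in DC and also in some macrophages. All mice were 6 weeks old and each wt mouse had a cKO littermate on the arrays, which gives 2 pairs. The cells were the Esam population of CD11c+ MHCII+ spleen cells, sorted with Esam, CD4 and CD8. The study divides CD11b+ DC into Esam-high and Esam-low cells and describes those of this comparison as CD4+ Esam-high DC. For the arrays the labels give the controls only as +/+, while elsewhere the study names Runx3fl/fl mice as controls of this cross. Values are log2 values from robust multichip averaging (RMA), and every difference is cKO minus wt on that log2 scale, with limma's standard error (SE).

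The array medians lay between 6.58 and 6.62. The DC markers of the gate were high on all 4 arrays, with Itgax (CD11c) at 12.99 to 13.12 and H2-Ab1, an MHC class II gene, at 13.68 to 13.73. The labels call all mice male, but Xist was at 12.75 and 12.78 on the wt and cKO arrays of litter 1 and at 5.15 and 5.19 on those of litter 2. The Y-linked gene Kdm5d ran the other way, so each genotype held 1 array of each kind. The Runx3 probe set differed by 0.02 (SE 0.10, limma, adjusted p = 0.973). It is not known whether this probe set covers the deleted exons, and it therefore cannot serve as a test of the genotypes. The study checked the deletion by Western blot and reported no Runx3 protein in CD4+ DC of cKO mice from this cross. Myc itself was at 10.44 and 10.30 on the wt arrays and at 9.23 and 9.11 on the cKO arrays, a difference of -1.20 (SE 0.10, adjusted p = 0.158), in which the groups did not overlap.

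Most of the nucleolar genes were slightly lower in cKO. The median difference over the 47 genes was -0.17, a change of -11.3%, with quartiles at -0.26 and -0.08 and a range from -0.45 for Bysl to 0.11 for Imp3. The median over all 18889 probe sets tested was -0.02. By sign 40 of the 47 genes were lower in cKO, 85.1%, against 55.1% of all probe sets tested. Both cKO arrays lay below both wt arrays for 31 genes, where 23.7% of all probe sets did so, and above them for 0 genes, where 16.4% did. Counted with 1 probe set per gene, as the 47 were, 57.55% of the 9894 genes tested were lower, with a median of -0.03. Of these 9894 genes, 2802 lay below wt and 1693 above it without overlap. Less of a transcript per cell and fewer cells that carry it cannot be told apart in RNA from a sorted population.

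None of the 47 genes passed the test. After Benjamini-Hochberg adjustment over all probe sets, limma called 0 of the 47 genes and 0 of 18889 probe sets (0.0%), and the smallest adjusted p among the genes was 0.308 (Bysl). At an unadjusted p under 0.05, limma gave 9 genes lower in cKO, where 4.81% of all probe sets were lower at that limit, and 0 genes higher, where 4.57% were (9.38% in either direction). That count was 5 without wt replicate 1 (7.73% of all probe sets), 12 without wt replicate 2 (7.01%), 2 without cKO replicate 1 (2.36%) and 1 without cKO replicate 2 (2.1%), each time lower in cKO. With the littermate pairs as a block it was 6, all lower (Bysl, Rcl1, Tsr1, Rrp9, Rrp1b and Rrp12), where 5.43% of probe sets were lower. In a fit with only 1 probe set for each gene, 0 of the 47 genes passed the adjusted threshold and 0.424% of all genes did, or 4.13% with the block. The study asked for a fold of 1.5 or more and, in its one-way test, a p of 0.05 or less. Both were met by 0 genes and by 1.41% of probe sets (0.514% lower and 0.9% higher). Without the fold limit that test gave 8 genes, all lower, where 4.91% of probe sets were lower. The SE ran from 0.08 to 0.19 with a median of 0.10, and for 18 of the 47 genes the gap between the 2 wt mice was wider than the difference between genotypes. The size of the difference exceeded 0.2 for 19 genes, 0.3 for 7 and 0.4 for 3, namely Bysl, Rcl1 and Tsr1.

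**Figure D1:**
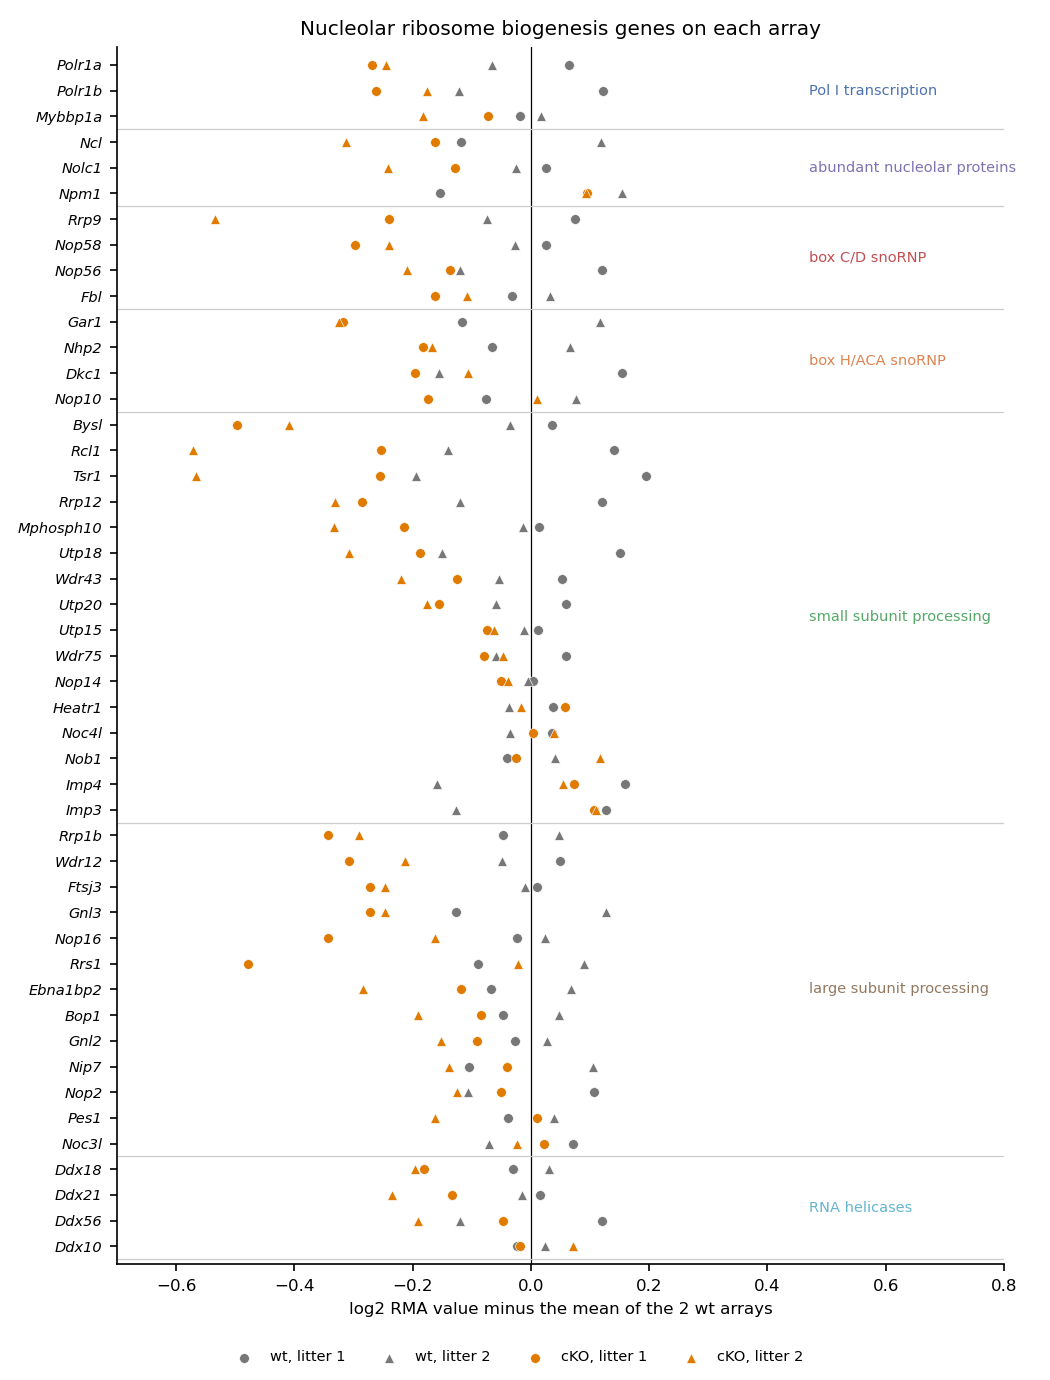
Log2 RMA value of each of the 47 genes on each of the 4 arrays, as the distance from the mean of the 2 wt arrays (x axis, log2), with genes grouped by role. Grey is wt and orange is cKO, circles are litter 1 and triangles litter 2; the orange points lie left of both grey points for 31 genes and right of both for none.

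The genes of RNA polymerase I transcription come first in the pathway, and all 3 were lower in cKO with groups that did not overlap. Polr1a, the largest subunit of the polymerase, was at 9.64 and 9.51 on the wt arrays and at 9.31 and 9.34 on the cKO arrays, a difference of -0.26 (SE 0.09, limma, unadjusted p = 0.048, adjusted p = 0.525). Both cKO arrays were low and close together, and the gap to the nearer wt array was wider than the gap between the wt arrays. Polr1b, the second subunit of the catalytic core, differed by -0.22 (SE 0.12). Mybbp1a, a Myb-binding protein of the nucleolus, was at 9.57 and 9.61 in wt and at 9.52 and 9.41 in cKO, a difference of -0.13 (SE 0.09), and only a small gap kept its groups apart.

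The abundant nucleolar proteins did not behave alike. Ncl (nucleolin), which binds the nascent ribosomal RNA, was at 11.67 and 11.91 in wt and at 11.63 and 11.48 in cKO, a difference of -0.24 (SE 0.13). Its groups did not overlap, but nearly all of the difference lay in litter 2, at -0.43 against -0.04 in litter 1. Nolc1, a chaperone of snoRNPs, differed by -0.19 (SE 0.09). Npm1 (nucleophosmin), a histone and ribosome chaperone that is among the commonest proteins of the nucleolus, was at 11.41 and 11.72 in wt and at 11.66 and 11.65 in cKO. The cKO arrays lay between the wt arrays, and the difference of 0.09 had an SE of 0.13. Probe sets that Npm1 shares with another symbol were not used.

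The 4 genes grouped here under the box C/D snoRNP, the class that methylates ribosomal RNA, were all lower, with no overlap between the groups for any. Rrp9, which binds the U3 RNA of the particle that starts small subunit processing, was at 7.71 and 7.57 in wt and at 7.40 and 7.11 in cKO, a difference of -0.39 (SE 0.14, limma, unadjusted p = 0.048, adjusted p = 0.525). The 2 cKO mice stood farther apart than the 2 wt mice. Nop58, a scaffold protein of the particle, was at 9.95 and 9.90 in wt and at 9.63 and 9.68 in cKO, -0.27 (SE 0.09, unadjusted p = 0.032, adjusted p = 0.479), with mice of the same genotype close together. Nop56, its partner, differed by -0.17 (SE 0.12), and Fbl (fibrillarin), the methyltransferase, was at 9.72 and 9.79 in wt and at 9.59 and 9.65 in cKO, a difference of -0.14 (SE 0.09).

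In the box H/ACA snoRNP, which turns uridine into pseudouridine, all 4 proteins were lower, but the groups overlapped for Dkc1 and Nop10. Gar1, a core protein, was at 8.05 and 8.28 in wt and at 7.85 and 7.84 in cKO, a difference of -0.32 (SE 0.11, limma, unadjusted p = 0.045, adjusted p = 0.521). The cKO mice were nearly equal and both lay below the lower wt mouse. Nhp2 differed by -0.17 (SE 0.09), Dkc1 (dyskerin), the enzyme of the particle, by -0.15 (SE 0.14), and in litter 2 Dkc1 was 0.05 higher in cKO. Nop10, the smallest core protein, was at 9.82 and 9.97 in wt and at 9.72 and 9.91 in cKO, -0.08 (SE 0.12), and 1 cKO array lay between the wt arrays.

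Small subunit processing held both ends of the range. Of its 16 genes 11 were lower in cKO, 10 of them with groups that did not overlap, and 5 were higher by 0.02 to 0.11, with a median of -0.12. Bysl (bystin), needed late in the maturation of the small subunit, was at 8.20 and 8.13 in wt and at 7.67 and 7.76 in cKO, a difference of -0.45 (SE 0.09, 95% interval -0.70 to -0.21, limma, unadjusted p = 0.006, adjusted p = 0.308). That is a change of -27.0%, the widest of the 47 genes, and the gap between the groups was several times the gap within either. Mphosph10, a protein of the U3 particle, was at 8.69 and 8.66 in wt and at 8.46 and 8.34 in cKO, -0.27 (SE 0.09, unadjusted p = 0.038, adjusted p = 0.494).

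Rcl1, which takes part in the cleavage of the ribosomal RNA precursor, was at 9.24 and 8.96 in wt and at 8.85 and 8.53 in cKO, -0.41 (SE 0.17, adjusted p = 0.566). Rrp12, an export factor of both subunits, was at 7.49 and 7.25 in wt and at 7.08 and 7.03 in cKO, -0.31 (SE 0.12, adjusted p = 0.543). In both genes the wt mouse of litter 1 was the highest array and the groups stayed apart. Tsr1, a late small subunit factor, had the same difference as Rcl1, -0.41, with an SE of 0.19, and its wt arrays, at 8.66 and 8.27, were nearly as far apart as the genotypes. Some genes of the processome, the large particle that forms on the nascent RNA, differed less than Rcl1 and Tsr1. Utp18 differed by -0.25, Wdr43 by -0.17, Utp20 by -0.17, Utp15 by -0.07, Wdr75 by -0.06 and Heatr1 by 0.02. Nop14 differed by -0.04, and its partner Noc4l by 0.02. Imp3 and Imp4, which join Mphosph10 in the U3 particle, did not share its direction. Imp3 was at 11.44 and 11.19 in wt and at 11.42 and 11.43 in cKO, 0.11 (SE 0.12), so that only the wt mouse of litter 2 stood apart. Imp4 was at 10.42 and 10.10 in wt and at 10.34 and 10.32 in cKO, 0.06 (SE 0.14), in the same arrangement. Nob1, the nuclease that makes the final cut of the small subunit RNA, differed by 0.05 (SE 0.10).

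Promoter sequence is shown for Bysl and Mphosph10, the small subunit genes with the smallest p, and for Utp18 and Imp4, a lower gene and a higher gene that hold the E-box bound by Myc with its partner Max. Each line gives the 250 bases before the RefSeq start of the gene in build GRCm38.p6, read 5′ to 3′ on the strand of the gene. Capitals mark CACGTG (E-box), CACGCG (a variant of it) and TGTGGT or its reverse complement (the core that Runx factors bind). Bysl lies on the minus strand, at chr17:47611493-47611742, with CACGCG beginning 129 bases and the Runx core 225 bases before the start. Mphosph10, on the minus strand at chr7:64392237-64392486, has CACGCG 218 and the Runx core 205 bases before its start. Utp18, on the minus strand at chr11:93885767-93886016, has CACGTG 20 bases before its start, and Imp4, on the plus strand at chr1:34439579-34439828, has it 121 bases before.
Bysl: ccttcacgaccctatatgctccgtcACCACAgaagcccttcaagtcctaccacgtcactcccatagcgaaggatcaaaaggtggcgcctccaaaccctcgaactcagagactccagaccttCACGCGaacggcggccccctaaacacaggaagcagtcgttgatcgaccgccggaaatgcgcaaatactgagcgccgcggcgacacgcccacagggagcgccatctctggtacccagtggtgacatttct
Mphosph10: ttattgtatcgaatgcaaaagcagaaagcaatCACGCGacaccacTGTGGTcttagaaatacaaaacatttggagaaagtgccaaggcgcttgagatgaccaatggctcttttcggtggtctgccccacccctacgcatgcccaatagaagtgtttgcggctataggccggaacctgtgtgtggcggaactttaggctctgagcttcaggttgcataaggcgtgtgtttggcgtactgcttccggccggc
Utp18: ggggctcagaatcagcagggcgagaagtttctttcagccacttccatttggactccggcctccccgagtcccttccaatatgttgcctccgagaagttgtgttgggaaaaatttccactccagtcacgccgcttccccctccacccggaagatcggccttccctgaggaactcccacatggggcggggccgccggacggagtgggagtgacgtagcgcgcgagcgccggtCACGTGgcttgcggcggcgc
Imp4: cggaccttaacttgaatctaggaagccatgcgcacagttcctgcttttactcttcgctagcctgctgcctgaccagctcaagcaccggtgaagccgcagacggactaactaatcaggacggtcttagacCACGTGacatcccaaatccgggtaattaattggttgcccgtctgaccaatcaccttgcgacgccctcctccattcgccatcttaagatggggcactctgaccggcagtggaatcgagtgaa

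RefSeq promoter windows, from 250 bases before to 50 after the start, were at hand for 41 of the 47 genes, as 44 windows. Those strings were searched on both strands, and none of them contains another. CACGTG was in 18.2% of the windows of the nucleolar genes, in 10.2% of those of all genes tested and in 7.15% of all promoters. CACGCG was in 29.5%, 17.3% and 9.27% of these windows, and the Runx core TGTGGT in 11.4%, 12.8% and 16.8%. Both E-box forms were more frequent in the windows of the nucleolar genes and the Runx core was not, and no test was run on these shares. Other promoter strings were also more frequent than in all promoters, with the GC box GGGCGG in 70.5%, against 35.7% of all promoters and 62.5% of those of the genes tested, and the ETS string CCGGAAG in 27.3%, against 8.86% and 19.1%. Median differences were also listed for genes with and without each E-box form, again without a test. The 8 genes with CACGTG (Imp4, Mybbp1a, Nop2, Pes1, Tsr1, Utp18, Utp20 and Wdr43) had a median of -0.15 and the 33 without it -0.19. For CACGCG the medians were -0.13 in 13 genes and -0.19 in 28. A match is no measured binding site, and sequence outside these windows was not searched.

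All 13 measured genes of large subunit processing had a difference below 0, 8 of them with groups that did not overlap, and the median was -0.20. Rrp1b, a nucleolar protein of early large subunit particles, was at 7.73 and 7.83 in wt and at 7.44 and 7.49 in cKO, -0.32 (SE 0.09, limma, unadjusted p = 0.022, adjusted p = 0.442). Ftsj3, a methyltransferase of ribosomal RNA, was at 8.57 and 8.55 in wt and at 8.29 and 8.32 in cKO, -0.26 (SE 0.08, unadjusted p = 0.031, adjusted p = 0.477). In Ftsj3 mice of the same genotype were nearly equal. Nop16 was at 10.11 and 10.16 in wt and at 9.79 and 9.97 in cKO, -0.25 (SE 0.10, adjusted p = 0.572), again without overlap.

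Pes1, Bop1 and Wdr12 form the PeBoW complex, which the large subunit needs for cutting its RNA precursor. Wdr12 was at 8.76 and 8.66 in wt and at 8.40 and 8.50 in cKO, -0.26 (SE 0.09, limma, unadjusted p = 0.047, adjusted p = 0.523). Its partners differed less, Bop1 by -0.14 (SE 0.09) and Pes1 by -0.08 (SE 0.10), and Pes1 was 0.05 higher in the cKO mouse of litter 1. The nucleolar GTPase genes Gnl3 (nucleostemin) and Gnl2 differed by -0.26 (SE 0.12) and -0.12 (SE 0.09), without overlap in either. Rrs1, which helps to place the small RNA of the large subunit, differed by -0.25, but its cKO arrays, at 7.34 and 7.79, lay on both sides of the lower wt array (SE 0.19). Ebna1bp2 differed by -0.20, the RNA methyltransferase Nop2 and the assembly factor Nip7 by -0.09 each. Noc3l was level, at 8.83 and 8.68 in wt and at 8.78 and 8.73 in cKO, a difference of -0.00 (SE 0.10).

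Among the RNA helicases, which unwind the folded precursor, 3 of 4 were lower in cKO. Ddx18 was at 10.11 and 10.17 in wt and at 9.96 and 9.94 in cKO, -0.19 (SE 0.08, limma, adjusted p = 0.6), and Ddx21 differed by -0.18 (SE 0.09), both without overlap. Ddx56 differed by -0.12 (SE 0.13) with overlapping groups. Ddx10 was at 9.44 and 9.49 in wt and at 9.45 and 9.54 in cKO, 0.03 (SE 0.09), and its 4 arrays were nearly level.

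**Figure D2:**
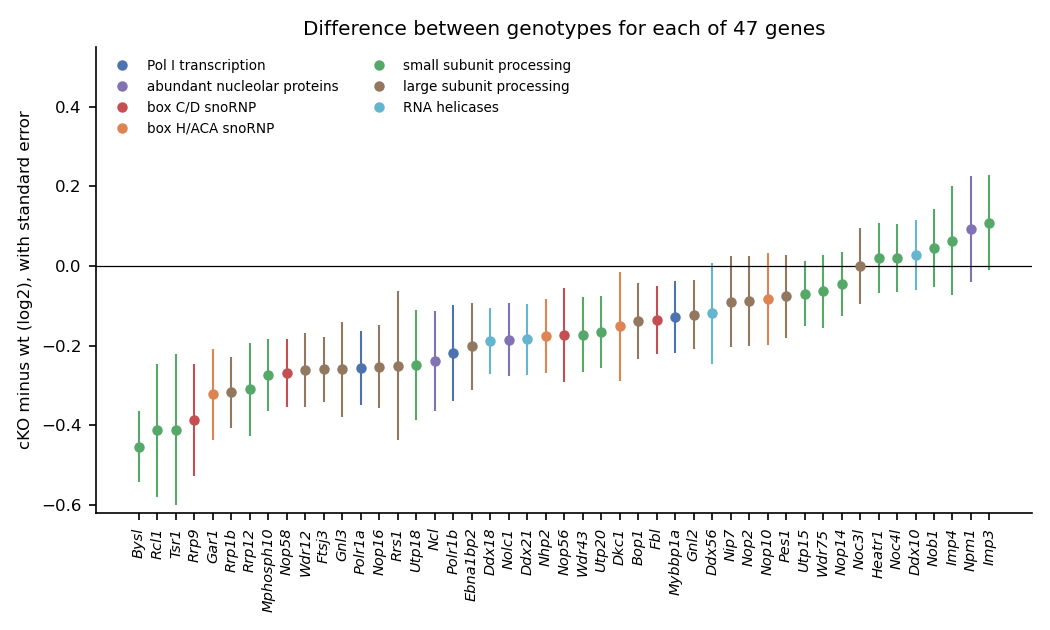
Difference between genotypes (y axis, cKO minus wt, log2) for each of the 47 genes in rising order, with bars of 1 standard error of limma on either side and colours for roles. Bysl is lowest at -0.45 and Imp3 highest at 0.11, and 40 points lie below 0, Noc3l at -0.00 among them.

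For Fbl, Ddx18 and Wdr12 a second probe set was tested, and the brighter one, used above, sits in the order of probe sets among neighbours that lie mostly on another chromosome than the gene. This held for 3 of 47 genes, while 96.8% of 21698 named probe sets had the chromosome of their neighbours. On the other probe set, Wdr12 was at 8.05 and 8.01 in wt and at 7.51 and 7.67 in cKO, -0.44 (SE 0.10, limma, unadjusted p = 0.011, adjusted p = 0.368), a wider gap than on the brighter one. Fbl differed by -0.11 (SE 0.09). Ddx18 was at 8.94 and 8.72 in wt and at 8.85 and 8.85 in cKO, 0.02 (SE 0.11), so that its lower value in cKO was not seen there. With these probe sets, an alternative chosen after seeing the data, the median stayed at -0.17, 39 genes were lower and 30 did not overlap.

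Within both littermate pairs the median of the nucleolar genes was negative, while the median over all probe sets differed between the litters. In litter 1 the median difference was -0.15 and 41 of the 47 genes were lower in cKO, where 61.8% of all probe sets were lower and their median was -0.05. In litter 2 it was -0.18 with 38 genes lower, where 48.1% of all probe sets were lower and their median was 0.01. Both litters had the lower value in cKO for 35 genes, where 33.8% of all probe sets did. Of the 9894 genes tested, 6682 were lower in litter 1, 4743 in litter 2 and 3886 in both. Heatr1, Nob1 and Ddx10 were higher in both litters, and 9 genes went opposite ways. Bysl was lower by -0.53 and -0.37 in litters 1 and 2, Rcl1 by -0.39 and -0.43, and Tsr1 by -0.45 and -0.37. Single genes could still differ widely between the litters. Npm1 went from 0.25 in litter 1 to -0.06 in litter 2, and Gar1 from -0.20 to -0.44.

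**Figure D3:**
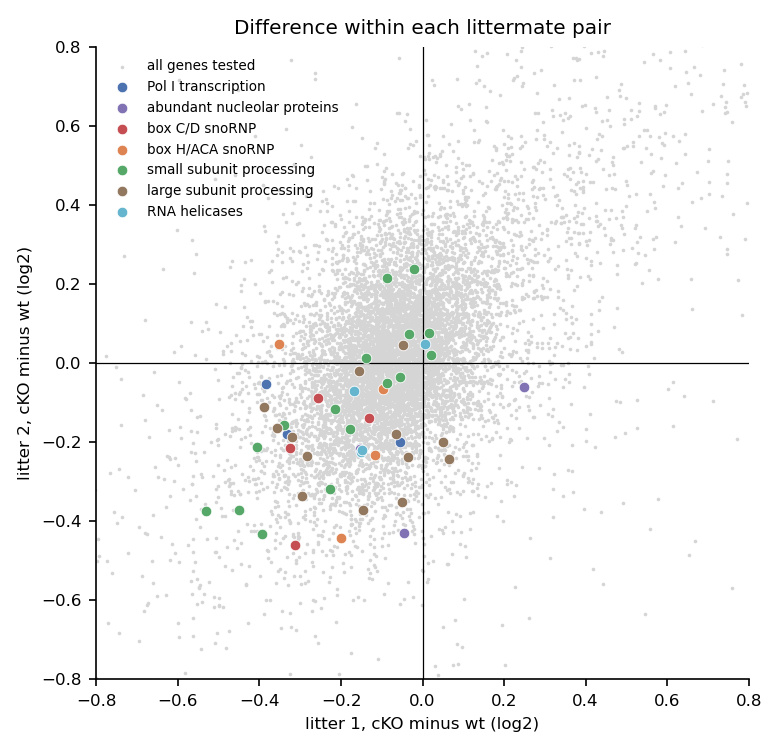
Difference between cKO and wt in litter 1 (x axis, log2) and in litter 2 (y axis, log2), with 1 point per gene. Coloured points are the 47 genes by role, 35 of them in the lower left corner, and small grey points are all genes tested, of which those beyond the plotted range are not drawn.

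The rest of the pathway was examined through the 103 other listed genes of ribosome biogenesis that were measured. Their median difference was -0.10, with 85 lower and 18 higher, 53 below wt and 6 above it without overlap (23.7% and 16.4% of all probe sets), and 11 lower and 0 higher at an unadjusted p under 0.05 (4.81% and 4.57% of all probe sets). limma called 0 of them after adjustment. Leaving out wt replicate 1 gave a median of -0.06, and leaving out wt replicate 2 gave -0.15.

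The remaining small subunit factors, 37 genes, had a median of -0.12 with 31 lower, and the processome gene Pwp2 differed by -0.36 (SE 0.10), Utp11 by -0.24, Nol11 by -0.19 and Dcaf13 by -0.19. The remaining large subunit factors, 41 genes, had the same median with 37 lower, among them the GTPase gene Gtpbp4 at -0.36 (SE 0.10), Nol12 at -0.36 (SE 0.09), the AAA ATPase gene Mdn1 at -0.32 (SE 0.09) and the SUMO protease gene Senp3 at -0.28 (SE 0.09). Subunits of the exosome, which trims RNA from its end, had a median of -0.11 with 11 of 12 lower, Exosc7 at -0.27, Exosc5 at -0.25, Exosc4 at -0.18 and Exosc9 at -0.15. The other genes of RNA polymerase I transcription did not share the shift. Their median was 0.02 and 6 of 13 were lower, with the polymerase subunit genes Polr2h at -0.37 (SE 0.12) and Polr1e at -0.36 (SE 0.10), the subunit gene Znrd1 at 0.19 (SE 0.11) and the selectivity factor gene Taf1c at -0.14.

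The ribosomal proteins themselves had medians near 0. The 55 cytosolic ribosomal protein genes had a median of -0.00 with 30 lower, 6 below wt and 6 above it without overlap, where 23.7% and 16.4% of all probe sets were. Their litters differed, with a median of 0.04 and 15 lower in litter 1 and of -0.09 and 41 lower in litter 2. In 33 of the 55 genes the litters went opposite ways. The 77 mitochondrial ones had a median of -0.04 with 50 lower, 21 below wt and 5 above it without overlap. Of the 9894 genes tested, 2802 lay below wt and 1693 above it. Cell cycle genes had a median like that of the nucleolar genes, -0.18, with 24 of 24 lower and 11 below wt without overlap. In these genes the wt mouse of litter 1 was above that of litter 2 for 23 of 24, and for the nucleolar genes this was so for 28 of 47. The share in the nucleolar genes was near that of all features, at 11146 of 18889 probe sets and 6258 of 9894 genes. The nucleolar roles were split, with 15 of 16 in small subunit processing and 4 of 13 in large subunit processing. Litter medians were -0.16 and -0.08 in small subunit processing and -0.15 and -0.20 in large subunit processing. The litter medians of the cell cycle genes were -0.24 and -0.11. Another 16 early growth genes, such as those of purine synthesis, had a median of -0.12 with 14 lower, and the partners and antagonists in the Myc network, with Myc itself 10 genes, had a median of -0.02 with 5 lower. None of these lists was tested against another.

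**Figure D4:**
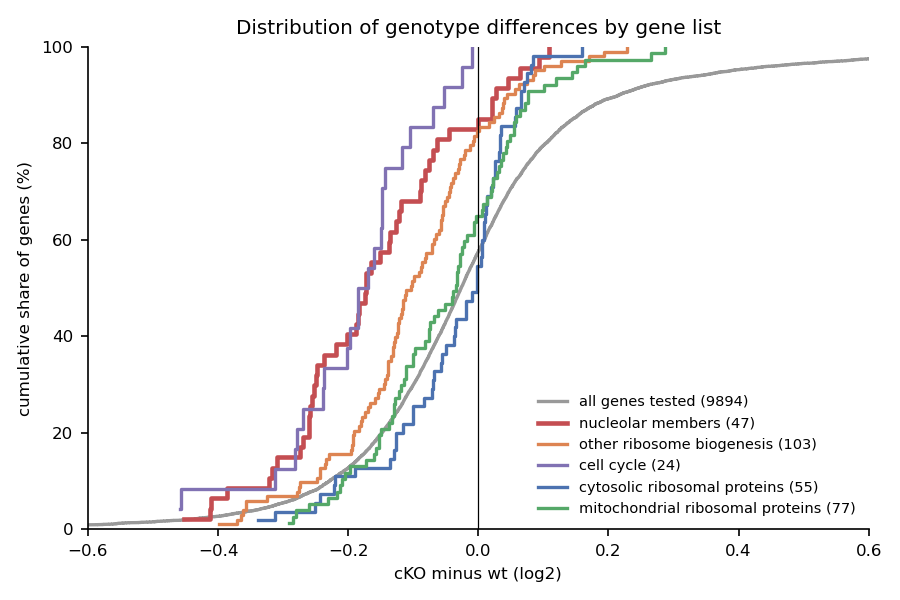
Cumulative share of genes (y axis, percent) against the difference between genotypes (x axis, cKO minus wt, log2) for the 47 nucleolar genes, 4 other lists and all 9894 genes tested. The curves of the nucleolar and the cell cycle genes lie furthest left, with medians of -0.17 and -0.18, and those of both kinds of ribosomal protein genes cross their middle near 0; genes beyond the plotted range are not drawn.

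Genes taken as markers of other cells also differed between the genotypes, although limma called 0 of them after adjustment. The 8 of 8 macrophage markers measured were higher in cKO, with a median difference of 0.75, and their values, summed on the linear scale, were 7773 to 8827 on the wt arrays and 11018 to 11926 on the cKO arrays. Of 7 cDC1 markers 6 were higher, with a median of 1.23 and sums of 4111 to 4776 in wt and 9590 to 10474 in cKO. Plasmacytoid DC markers were higher for 4 of 5 measured (sums 1469 to 1528 and 1932 to 2032), B cell markers for 4 of 5 (2299 to 3235 and 3183 to 3816) and monocyte and neutrophil markers for 4 of 4 (2362 to 2752 and 4723 to 5742). The B cell sums overlapped. Lower in cKO were Batf3 of the cDC1 markers (-0.29, SE 0.12), Bst2 of plasmacytoid DC (-0.12, SE 0.16) and Blk of B cells. Blk was at 7.40 and 8.22 in wt and at 6.41 and 6.42 in cKO, -1.40 (SE 0.29). The neutrophil genes S100a8 and S100a9 and the B cell gene Pax5 lay below 6.5 on all arrays, as did Cd3e, Cd3d and Cd3g of T cells and Alas2 of erythroid cells. The 12 markers of the labelled gate had a median difference of 0.03, with 7 higher and 5 lower, and sums of 59542 to 60273 and 62462 to 63459. Without overlap 6 lay above wt and 3 below it, where 16.4% and 23.7% of all probe sets did. Itgam differed by 0.75 (SE 0.10), and the sorting markers Cd4 and Esam by 0.36 each (SE 0.09 and 0.14). Zbtb46 differed by -0.28 (SE 0.14) and Irf4 by -0.26 (SE 0.12). The study reported Spic, counted here as a macrophage marker, as upregulated in Runx3-deficient CD4+ DC. Whether the markers of other cells came from such cells or from the sorted DC themselves was not tested. Any link to the lower nucleolar values was not tested either.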

How the data were processed

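Esam DC of 4 mice were measured on 4 Affymetrix arrays. The deposited log2 values were made by the authors with RMA and GC correction in Partek on the mm9 build, and versions are not given in the sources used here. The methods name an exon array, the platform annotation a gene-level array. Of 35399 probe sets, 21789 carried 1 symbol, and 1621 with several were not named. Probe sets reaching 6.5 on at least 1 array (18889) were tested with limma 3.58.1 in R 4.3.3 (cKO minus wt, two-sided, Benjamini-Hochberg, threshold 0.05), with 2 residual and 2.2 prior degrees of freedom. The number of arrays limits the precision. Motifs came from RefSeq promoters (GRCm38.p6), whose coordinates are not those of the authors' build.

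Named genes: each of the 47 genes could be named, and array values were given for the 12 with the smallest unadjusted p and for the lowest and highest of each role, and also for Imp4 and in part for Tsr1 and Rrs1, chosen after their values were seen. From each other list of the pathway the 4 genes with the smallest p were named. Members, lists and tests were chosen with earlier results of these data known. The litter numbers in the labels pair the mice, and deviations from group means correlated within litters (r = 0.27 across probe sets). Alternatives were the litter as a block, other filters, scalings and probe set rules, and each array left out. Detection above background was not assessed.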

Additional observations from a re-analysis of the deposited data

How the results depend on the processing

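The median difference of the nucleolar genes stayed between -0.15 and -0.18 under every alternative run, and 0 of the genes passed limma's adjusted threshold or the study's thresholds under any of them. With 1 probe set per gene 42 of 9894 genes (0.424%) passed the adjusted threshold and the smallest adjusted p among the nucleolar genes was 0.116. With the littermate pairs as a replicate block as well, an alternative chosen after seeing the data, 409 genes (4.13%) passed and the smallest was 0.0596 (Bysl). The replicate block alone changed no call, and at an unadjusted p under 0.05 it gave 6 nucleolar genes in place of 9, all lower (5.43% of all probe sets). That count was 6 for genes with a mean of at least 8 and with a variance trend, and 8 with arrays centred or quantile normalization run again. It was 11 without a filter and 12 with 1 probe set per gene. The shares over all features in these fits are not given here, so these counts cannot be read as above or below the main one. Genes lower in cKO numbered 37 to 43 with 1 array left out. Genes below wt without overlap numbered 28 with quantile normalization run again and 27 of 42 with a mean of at least 8, against 31 of 47. For the other ribosome biogenesis genes the median ran from -0.151 to -0.0566.

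Of 324 differences of single genes with all 4 arrays kept, 2 changed sign, those of Noc3l with arrays centred (0.00941) or quantile normalized (0.010). Of 188 with 1 array left out, 16 did, in 14 genes. The lowest and highest values were -0.0595 and 0.247 for Npm1, -0.306 and 0.00342 for Dkc1, -0.175 and 0.0104 for Nop10, -0.0166 and 0.0578 for Heatr1, -0.0186 and 0.235 for Imp3, -0.0962 and 0.223 for Imp4, -0.015 and 0.0562 for Noc4l, -0.026 and 0.116 for Nob1, -0.162 and 0.0098 for Pes1, -0.194 and 0.0183 for Nop2, -0.071 and 0.0698 for Noc3l, -0.194 and 0.0152 for Nip7, -0.0181 and 0.0719 for Ddx10, and -0.239 and 0.00124 for Ddx56. The cause was not tested.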

Other observations

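Several of the nucleolar genes have genes of small nucleolar RNAs within their bounds in RefSeq, and 4 of the 52 snoRNA probe sets tested lay within 3 of them. In Ncl, Snora75 was at 8.16 and 7.74 in wt and at 8.23 and 7.82 in cKO, a difference of 0.07 (SE 0.22), and Snord82 differed by -0.04 (SE 0.22), beside -0.24 for Ncl itself. Both moved more between litters or mice than between genotypes. Snord57 in Nop56 differed by -0.07 (SE 0.14) beside -0.17 for the host, and Snord53 in Wdr43 by -0.24 (SE 0.15) beside -0.17. None passed limma's adjusted threshold (adjusted p from 0.732 to 0.979), and whether these probe sets measure the processed snoRNA or the RNA of the host is not known here. These probe sets were chosen after their values were seen.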
